A study of Mus musculus with 33 samples.

Results

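The genes described here are Slc34a2 and the other plasma membrane transporters of inorganic phosphate Slc20a1, Slc20a2 and Xpr1. These 4 genes of the 21671 in the table were taken by symbol, and all 4 were found. Slc34a2 was chosen on its loss in the tumours of this series, so its values in the tumour comparisons are given as a description with no test. Slc20a1, Slc20a2 and Xpr1 were added as genes of the same function and were tested in every comparison. The livers given AAV8-TBG-CRE did not enter the choice of Slc34a2, which was tested there.

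Cells take up phosphate through sodium-coupled cotransporters of the SLC34 and SLC20 families and release it through XPR1, the known phosphate exporter of animal cells. Slc34a2 encodes NaPi-IIb, a cotransporter of apical membranes, best known from small intestine and from alveolar type 2 cells of the lung and also found in liver. Slc20a1 and Slc20a2 encode the widely expressed type III cotransporters, and all 3 of Slc20a1, Slc20a2 and Xpr1 were first found as receptors of retroviruses. Phosphate balance of the body is set by parathyroid hormone, vitamin D and FGF23, and inside cells inositol pyrophosphates bind the SPX domain of XPR1 and report the phosphate state.

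Total RNA was sequenced from 33 C57BL/6 mouse livers and liver tumours. In the short-term arm, mice aged 6 to 8 weeks were injected with 1e11 particles of AAV8-TBG-CRE, whose TBG promoter drives Cre in hepatocytes, and were killed 4 days later. The groups of 5 livers each were wild type, Ex3 (beta-cat Ex3, in which Cre deletes exon 3 of the β-catenin gene), MYC (R26-lslMYC, in which Cre switches on a MYC transgene at Rosa26) and MYC+Ex3 with both alleles. All of them, the wild type included, received the virus. The tumour arm held nodules from Alb-CreERT2/R26-lslMYC mice (MYC tumours, 3) and from Alb-CreERT2/R26-lslMYC/b-catEx3 mice (MYC+Ex3 tumours, 3), in which Cre is expressed from the albumin promoter and needs 4-hydroxytamoxifen (4-OHT). Its controls were 7 wild-type livers taken 4 days after 4-OHT. The tumours have no treatment or day in the labels and the ages of this arm are not given, so oncogene, tumour growth and time since treatment cannot be told apart there. The labels do not say that libraries of a group came from separate animals, and p-values measure the spread between these libraries.

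Levels are RPKM, reads per kilobase of gene per M reads of the authors' library totals. Reads in genes ran from 3.75 to 7.31 M in the AAV8-TBG-CRE livers and from 6.65 to 9.82 M in the tumour arm. Those reads were 99.95% to 99.96% of the total behind the RPKM in the former and 22.2% to 29.6% in the latter, so RPKM are compared within an arm only. Of the AAV8-TBG-CRE libraries, 10 held RNA of the keratins Krt5, Krt14 and Krt17 (sum 3.95 to 23.8 RPKM) and 10 nearly none (at most 0.398). Keratin-bearing were 3 of the 5 wild-type livers, 3 of the 5 Ex3 livers, 1 MYC liver and 3 livers with both alleles. By Xist and Ddx3y, 2 of 5 wild-type livers were male. So were 3 Ex3, 3 MYC and 4 MYC+Ex3 livers of 5 each, 4 of the 7 livers given 4-OHT, all 3 MYC tumours and 2 of the 3 with both alleles. Hepatocyte markers (Alb, Ttr, Apoa1, Hnf4a, Cps1, Serpina1e, Tat) averaged at least 1 RPKM in all 7 groups, 7 of 7 genes in each.

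Slc34a2 stood high in the 4-OHT livers and was at or near 0 in all 6 tumours. In the 7 4-OHT livers its RPKM ran from 14.6 to 35.3 with a median of 17.0, from 2014 to 4994 reads. In the 3 MYC tumours it was 0, 0.0318 and 0.0112, from 0, 6 and 2 reads. In the 3 MYC+Ex3 tumours it was 0.0170, 0 and 0.00667, from 3, 0 and 1 reads. The groups lay far apart: the lowest 4-OHT liver had 277 reads per M reads in genes and the highest tumour 0.628. The ratio of summed rates between 4-OHT livers (447 reads per M) and MYC tumours (0.307) was 1458. Its exact 95% interval of 740 to 3376 covers counting error of the pooled reads only. It leaves out the spread between libraries and the choice of the gene on this loss. Against MYC+Ex3 tumours (0.152 reads per M) the ratio was 2942, with an interval of the same kind of 1149 to 10798. In the 2 tumours with no read, a count of 0 allows up to 0.450 reads per M in the MYC tumour and 0.382 in the MYC+Ex3 tumour. At 8 and 4 reads in all, the tumour groups were too shallow in this gene for a comparison with each other.

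The 4-OHT livers themselves differed in RPKM by a token in their titles whose meaning the labels do not give. The 4 livers whose titles hold S14 had 27.9 ± 8.62 RPKM of Slc34a2 (SD, range 17.0 to 35.3). The 3 with S15 had 15.2 ± 0.985 (range 14.6 to 16.3), all below the S14 livers in RPKM. Per M reads in genes the sets overlapped, with S14 replicate 1 at 311 and S15 replicates 6 and 7 at 320 and 354. The highest RPKM of any gene in the tumour arm was only 42.9 to 67.5, and the 4-OHT livers had Slc34a2 at 25.0% to 61.5% of their own maximum. It ranked between place 146 and place 1518 among the genes of these libraries by RPKM. Alb and Apoa1 averaged 48.2 and 51.0 RPKM in the 4-OHT livers, near the highest value of any gene, so the scale is narrow at its top. In the AAV8-TBG-CRE livers the highest RPKM of any gene was lower in deeper libraries. It was 396 in the library with 3.75 M reads in genes and 220 in that with 7.31 M. Whether the counts of abundant genes are compressed in either arm was not tested. This limit also holds for the percent of maximum, the rank and the ratios of Slc34a2.

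Marker lists of cell types known for Slc34a2 are given beside these values. The 8 cholangiocyte markers summed to 10.2 to 15.2 RPKM in 4-OHT livers, 6.77 to 20.9 in MYC tumours and 3.81 to 10.6 in MYC+Ex3 tumours. Spp1 averaged 10.5, 9.79 and 3.47 RPKM of these sums. All 8 overlapped between MYC tumours and 4-OHT livers, with 5 means higher and 3 lower in the tumours. In MYC+Ex3 tumours Spp1, Krt19, Epcam and Muc1 lay wholly below the 4-OHT livers, while Sox9 (0.757 to 3.93 against 0.112 to 0.502 RPKM) and Cldn4 (0.0911 to 2.13 against 0.0288 to 0.0778) lay wholly above them. Krt7 and Cftr overlapped. The 6 markers of lung alveolar type 2 cells summed to 1.39 to 3.09, 0.933 to 3.92 and 1.26 to 1.95, with Sftpc at 0 in all 6 tumours and 0.0327 on average in 4-OHT livers. Of the other markers, Napsa averaged 0.533, 0.933 and 1.09 RPKM, Lamp3 0.0349, 0.0615 and 0.0747, Sftpd 0.913, 0.751 and 0.216, Sftpa1 0.350, 0.286 and 0.194 and Sftpb 0.0452, 0.0649 and 0.0422. Only Sftpd separated, with MYC+Ex3 tumours (0.171 to 0.249) below the 4-OHT livers (0.433 to 1.42). The 7 enterocyte markers summed to 9.26 to 21.5, 12.9 to 21.7 and 10.0 to 14.4. Of them Alpi, Cdx1 and Cdx2 were at 0 in all 4-OHT livers, and Fabp2, which liver also expresses, averaged 15.2 RPKM there beside 16.8 in MYC and 11.1 in MYC+Ex3 tumours. Vil1 averaged 0.0792, 0.239 and 1.19, and the MYC+Ex3 tumours (0.752 to 1.48) lay above all 4-OHT livers (0.0428 to 0.136). The hepatocyte sum was 223 to 318 in 4-OHT livers, 193 to 300 in MYC tumours and 178 to 235 in MYC+Ex3 tumours. The means of all 7 hepatocyte markers were lower in both kinds of tumour. In MYC+Ex3 tumours Alb, Ttr and Serpina1e lay wholly below the 4-OHT livers, while all 7 overlapped in MYC tumours. The limit given above for abundant genes holds for this sum too. Macrophage markers summed to 62.8 to 84.1 in 4-OHT livers, 17.8 to 63.5 in MYC tumours and 23.8 to 30.3 in MYC+Ex3 tumours. Endothelial markers summed to 29.3 to 46.0, 22.8 to 30.6 and 20.8 to 26.8, and stellate and fibroblast markers to 31.7 to 41.6, 21.5 to 37.1 and 20.2 to 24.6. For the sums of all 3 lists the MYC+Ex3 tumours lay below the 4-OHT livers and the MYC tumours overlapped them. Single markers went both ways. In MYC tumours Emr1, Clec4f, Csf1r, Stab2, Kdr, Reln and Dcn lay wholly below the 4-OHT livers, and Col1a1 and Col3a1 wholly above. In MYC+Ex3 tumours 4 of 5 macrophage, 3 of 5 endothelial and 3 of 5 stellate and fibroblast markers lay wholly below. The means of Lyve1 (9.31 against 6.95 RPKM) and Col1a1 (4.33 against 1.72) were higher there. The part of cell make-up in the loss of Slc34a2 was not tested. In such bulk RNA, fewer cells of a type and less RNA per cell cannot be told apart.

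In the AAV8-TBG-CRE livers Slc34a2 was lower and varied widely. Wild-type livers had 3.63, 0.508, 5.12, 2.46 and 12.8 RPKM. Ex3 livers had 7.0, 5.07, 2.27, 8.00 and 0.146. In each of these groups 4 livers lay above 2 RPKM and 1 lay far below. Both low libraries (0.508 and 0.146) were keratin-bearing, and so were the highest libraries of the 2 groups (12.8 and 8.00). MYC livers had 2.08, 0.814, 2.72, 0.181 and 0.830. MYC+Ex3 livers had 1.00, 0.591, 0.494, 0.162 and 0.940, all below 4 of the 5 wild-type and 4 of the 5 Ex3 livers. The means ± SD (n = 5) were 4.91 ± 4.74, 4.5 ± 3.27, 1.32 ± 1.04 and 0.638 ± 0.344 in that order. Behind them were 3 to 273 reads a library, so counting error alone is large in the lowest ones.

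**Figure D1:**
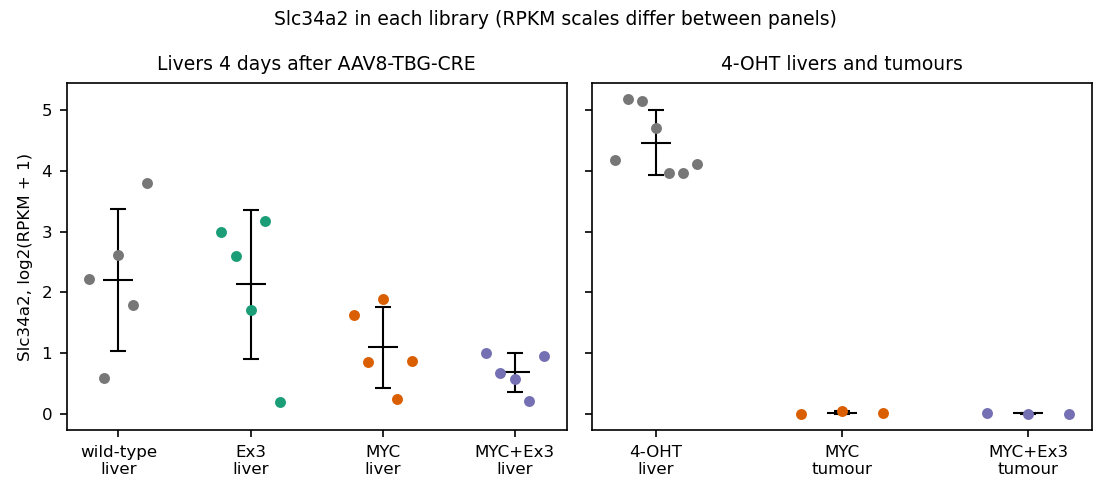
Slc34a2 as log2(RPKM + 1) in each library (points) with the mean and SD of each group (bars), left for the 4 groups of AAV8-TBG-CRE livers and right for 4-OHT livers and tumours, whose RPKM scale differs. The 7 4-OHT livers (14.6 to 35.3 RPKM) lie far above the 6 tumours (0 to 0.0318 RPKM), and on the left the MYC and MYC+Ex3 livers lie low beside 1 low liver in each of the groups without MYC.

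The tests in these livers were limma on log2(RPKM + 1), with a gene called at a Benjamini-Hochberg adjusted p under 0.05 over the 13688 genes tested. Slc34a2 fell in MYC+Ex3 against wild-type livers, by 1.52 ± 0.529 (SE) on the log2 scale (limma adjusted p = 0.0425), and the 2 groups overlapped through the wild-type liver at 0.508. The call was lost at a pseudocount of 0.1 (limma adjusted p = 0.0603), with sex as a covariate (0.0916), with voom on recovered reads (0.0963), in the keratin-bearing libraries alone (0.268) and without any 1 of 8 libraries, the highest p being 0.132 without wild-type liver replicate 5. In the keratin-free libraries alone, only 2 against 2, it held (log2 difference -1.58, limma adjusted p = 0.014). The difference was -1.10 ± 0.529 between MYC and wild-type livers (limma adjusted p = 0.142) and -1.45 ± 0.529 between MYC+Ex3 and Ex3 livers (0.0566), neither of them called. The last was called in 4 of 11 alternatives: the keratin-free libraries alone (only 2 against 2, -1.96, limma adjusted p = 0.00594), sample quality weights (0.0122), library set as a covariate (0.0401) and only these groups in the fit (0.0452). It was also called without any 1 of 4 libraries, which were Ex3 liver replicate 5 (limma adjusted p = 0.00709), wild-type replicates 2 and 5 (0.0351 and 0.0375) and MYC replicate 4 (0.0498). The difference of MYC from wild type was called without wild-type replicate 2 (-1.5, limma adjusted p = 0.0438). Between Ex3 and wild-type livers it was -0.06, with a 95% interval of -1.17 to 1.04, and its sign changed with sex as a covariate (0.02) and in the keratin-free libraries (0.39). Between MYC+Ex3 and MYC livers it was -0.41 (interval -1.52 to 0.69).

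A further comparison, added after the values were seen, set the 10 livers with MYC (MYC and MYC+Ex3) against the 10 without (wild-type and Ex3). Slc34a2 was lower in the livers with MYC, 0.981 ± 0.815 RPKM (SD, n = 10) against 4.70 ± 3.84 (n = 10). The log2 difference of -1.28 ± 0.374 was called (limma adjusted p = 0.0105). It stayed called in the 9 alternative settings run and without each of the 20 libraries in turn, with a highest adjusted p of 0.0352 and 0.0226. The difference between the effect of MYC with Ex3 and without it was -0.35 ± 0.748 (limma adjusted p = 1). Cholangiocyte markers summed to 64.3 to 77.2 RPKM in wild-type, 61.2 to 158 in Ex3, 43.6 to 103 in MYC and 33.0 to 103 in MYC+Ex3 livers. Spp1 averaged 60.4, 65.8, 56.5 and 57.4 of these sums. Against wild type, the mean was lower for 6 of the 8 markers in MYC livers and for 7 in MYC+Ex3 livers. Epcam was at 0.762 to 2.08 RPKM in wild-type, 1.4 to 7.06 in Ex3, 0.923 to 1.82 in MYC and 0.369 to 0.729 in MYC+Ex3 livers, the last below all the livers of both groups without MYC. Krt7 was wholly lower in MYC (0.360 to 0.942) than in wild-type livers (1.14 to 2.33). Sox9 averaged 2.35, 2.01, 1.98 and 1.13, Cftr 0.154, 0.25, 0.118 and 0.0578 and Krt19 1.88, 13, 1.83 and 1.29, in the order of the sums. Muc1 averaged 0.735, 5.08, 0.637 and 0.529 in that order. Cldn4 went the other way, at 0.182, 0.316, 0.559 and 0.421. In Ex3 livers Krt19 ran from 0.689 to 57.5 and Muc1 from 0.403 to 22.0, so these means are uneven. The part of those cells in the difference was not tested.

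Set side by side per M reads in genes, a scale that does not use the authors' totals, Slc34a2 was at 2.47 to 62.3 in the wild-type livers given virus and at 277 to 725 in the wild-type livers given 4-OHT. For the other 3 genes these ranges overlapped: 52.6 to 158 and 85.6 to 188 for Slc20a1, 181 to 233 and 168 to 205 for Slc20a2, and 121 to 165 and 130 to 171 for Xpr1. Agent and set of libraries cannot be told apart between these 2 kinds of wild-type liver, and no test was made.

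Slc20a1, a sodium-phosphate cotransporter of most cells, rose in both kinds of tumour. The promoters of Slc20a1 and Slc34a2 are shown with the letters of the E-box CACGTG, which MYC binds. No window was available for Slc20a2, which also rose in both kinds of tumour. Whether these letters bear on the level of any of these genes was not tested. The windows run from 250 bases before to 50 bases after the annotated start (RefSeq, GRCm38.p6), and capitals mark CACGTG, which reads the same on both strands.
Slc20a1, chr2:129198523-129198822, plus strand: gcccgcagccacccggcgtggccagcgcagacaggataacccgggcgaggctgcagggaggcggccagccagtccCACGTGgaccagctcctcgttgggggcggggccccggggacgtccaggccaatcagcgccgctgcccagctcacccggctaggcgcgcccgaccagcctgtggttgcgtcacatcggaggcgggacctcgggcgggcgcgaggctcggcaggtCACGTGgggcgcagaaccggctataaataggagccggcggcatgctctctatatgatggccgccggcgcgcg
Slc34a2, chr5:53049103-53049402, plus strand: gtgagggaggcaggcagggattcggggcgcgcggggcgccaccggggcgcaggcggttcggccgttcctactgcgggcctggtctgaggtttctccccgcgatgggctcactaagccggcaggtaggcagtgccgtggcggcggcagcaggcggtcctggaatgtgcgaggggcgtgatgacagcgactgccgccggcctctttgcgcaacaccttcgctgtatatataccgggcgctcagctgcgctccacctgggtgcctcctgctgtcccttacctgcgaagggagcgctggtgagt
The first Slc20a1 window holds CACGTG 2 times, beginning 175 and 22 bases before the start. Of 32851 promoter windows of this length, 7.15% hold it at least 1 time and 0.594% at least 2 times. The Slc34a2 window, the window of the second Slc20a1 start (chr2:129206846-129207145) and that of Xpr1 (chr1:155417395-155417694, minus strand) do not hold these letters. CTTTGAT, a core of the sites that β-catenin's TCF/LEF partners bind, was searched on both strands, is in 3.73% of all windows and is in none of these 4. A match is a description of the letters, and nothing was measured here on binding.

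The 7 4-OHT livers had 3.90 to 8.12 RPKM of Slc20a1 with a median of 4.93. MYC tumours had 11.3, 12.6 and 9.20, and MYC+Ex3 tumours 11.3, 15.4 and 17.4. Every tumour lay above every 4-OHT liver in RPKM. Per M reads in genes MYC tumour replicate 3 (179) lay below 4-OHT liver replicate 7 (188), so MYC tumours and 4-OHT livers overlapped on that scale. The log2 difference was 0.84 ± 0.201 for MYC tumours (limma adjusted p = 0.00348) and 1.22 ± 0.201 for MYC+Ex3 tumours (0.000139), folds of 1.79 and 2.32 on that scale. The median gene itself shifted up by 0.19 and 0.23 in these 2 comparisons, and after rescaling by the median ratio, which brings it to 0.0091 and 0.043, the Slc20a1 differences were 0.64 (limma adjusted p = 0.0179) and 1.01 (0.000764). The 2 kinds of tumour differed by 0.38, with a 95% interval of -0.13 to 0.89 (limma adjusted p = 0.451). Against the S14 livers alone the differences were 1.02 and 1.39, and against the S15 livers alone 0.60 (limma adjusted p = 0.0497) and 0.98 (0.00414). In the 4-OHT livers Slc20a1 stood at 4.99 ± 1.21 (S14, n = 4) and 7.02 ± 1.81 (S15, n = 3), the reverse order of Slc34a2.

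Short-term livers had less distinct values. Slc20a1 was at 10.1, 30.5, 22.7, 15.8 and 16.7 RPKM in wild-type livers and at 12.5, 11.6, 25.2, 21.4 and 22.4 in Ex3 livers. MYC livers had 36.2, 24.9, 17.2, 42.0 and 36.0, and MYC+Ex3 livers 24.7, 27.5, 18.2, 34.3 and 18.8. The groups overlapped in every comparison. MYC against wild-type livers gave a log2 difference of 0.70 ± 0.283 that was not called (limma adjusted p = 0.0822). It was called with the library set as a covariate (0.86, limma adjusted p = 0.0269) and without wild-type liver replicate 2 (0.0343) or MYC liver replicate 3 (0.0264). Between the 10 livers with MYC (28.0 ± 8.71 RPKM) and the 10 without (18.9 ± 6.61) the difference was 0.56 ± 0.20 (limma adjusted p = 0.0323), which was lost on rescaling by the median ratio (0.48, 0.0741) and without any 1 of 9 libraries (highest p 0.0636).

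Slc20a2, the second cotransporter of this family, was the most even of the 4 genes among the livers given virus and moved in the same direction by less. Wild-type livers had 38.9, 31.5, 37.1, 32.4 and 30.3 RPKM, Ex3 livers 33.8, 36.1, 30.7, 34.9 and 27.3. MYC livers had 46.8, 45.6, 36.9, 40.9 and 33.4, and MYC+Ex3 livers 46.7, 46.0, 39.7, 42.1 and 40.8. All 5 MYC+Ex3 livers lay above all wild-type and all Ex3 livers, while MYC livers overlapped both. Slc20a2 was called in MYC+Ex3 against wild-type livers (0.33 ± 0.108, limma adjusted p = 0.0283) and against Ex3 livers (0.40 ± 0.108, 0.0115), and not in MYC against wild-type livers (0.25 ± 0.108, 0.105). The first call was lost on rescaling (0.25, limma adjusted p = 0.0673), with sex as a covariate (0.28, 0.0697) and without any 1 of 5 libraries. In the keratin-free libraries alone, 2 against 2, neither passed (limma adjusted p = 0.256 and 0.13), and in the keratin-bearing ones both did (0.0391 and 0.0397). Livers with MYC had 41.9 ± 4.49 RPKM and those without 33.3 ± 3.53, a difference of 0.32 ± 0.0761 (limma adjusted p = 0.00219), which was not called in the keratin-free libraries alone (0.24, 0.131).

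In the tumour arm Slc20a2 was at 6.23 to 9.11 RPKM in the 7 4-OHT livers, with a median of 8.05. MYC tumours had 10.8, 9.73 and 11.2, and MYC+Ex3 tumours 11.1, 11.0 and 13.9, all 6 above every 4-OHT liver. It rose by 0.40 ± 0.115 in MYC tumours (limma adjusted p = 0.01) and by 0.56 ± 0.115 in MYC+Ex3 tumours (0.000748). After rescaling the differences were 0.20 (limma adjusted p = 0.0409) and 0.35 (0.00123). Against the S14 4-OHT livers alone the MYC tumours no longer passed (0.34, limma adjusted p = 0.0558), and against the S15 livers alone they did (0.49, 0.0248). Under sample quality weights this call was lost too (0.37, limma adjusted p = 0.0539). The kinds of tumour differed by 0.16 (interval -0.13 to 0.45, limma adjusted p = 0.603).

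Xpr1, the exporter, moved the other way. In the 4-OHT livers it ran from 3.42 to 4.70 RPKM with a median of 4.12. MYC tumours had 2.07, 3.19 and 3.05, and MYC+Ex3 tumours 2.55, 2.98 and 2.45. Every tumour lay below every 4-OHT liver. Xpr1 fell by 0.42 ± 0.117 in MYC tumours (limma adjusted p = 0.00842) and by 0.45 ± 0.117 in MYC+Ex3 tumours (0.00396), and by 0.59 and 0.62 after rescaling. The first call was lost under sample quality weights (-0.33, limma adjusted p = 0.087) and narrowly without MYC tumour replicate 1 (-0.28, 0.0507), the library with the lowest value. Against the S14 and the S15 livers alone it was -0.39 and -0.46 (limma adjusted p = 0.0499 and 0.0425). The kinds of tumour differed by -0.03 (interval -0.33 to 0.27).

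Xpr1 in the short-term livers was at 13.2, 17.3, 15.7, 16.7 and 17.9 RPKM in wild-type and 16.5, 16.8, 25.5, 22.8 and 15.6 in Ex3 livers. It was at 12.4, 13.2, 14.2, 10.2 and 16.6 in MYC and at 14.7, 14.1, 13.5, 11.4 and 19.3 in MYC+Ex3 livers. The 4 groups overlapped, and none of the comparisons of single groups was called, the nearest being MYC+Ex3 against Ex3 livers (-0.38 ± 0.156, limma adjusted p = 0.0884). Livers with MYC had 14 ± 2.58 RPKM and livers without 17.8 ± 3.62, a difference of -0.32 ± 0.110 (limma adjusted p = 0.0242). In the keratin-free libraries alone this was -0.12 (limma adjusted p = 0.472), and without Ex3 liver replicate 3 it just missed the threshold (0.0511). In this gene the 2 highest Ex3 livers (25.5 and 22.8) were female and keratin-bearing, and the lowest (15.6) was male and keratin-bearing.

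**Figure D2:**
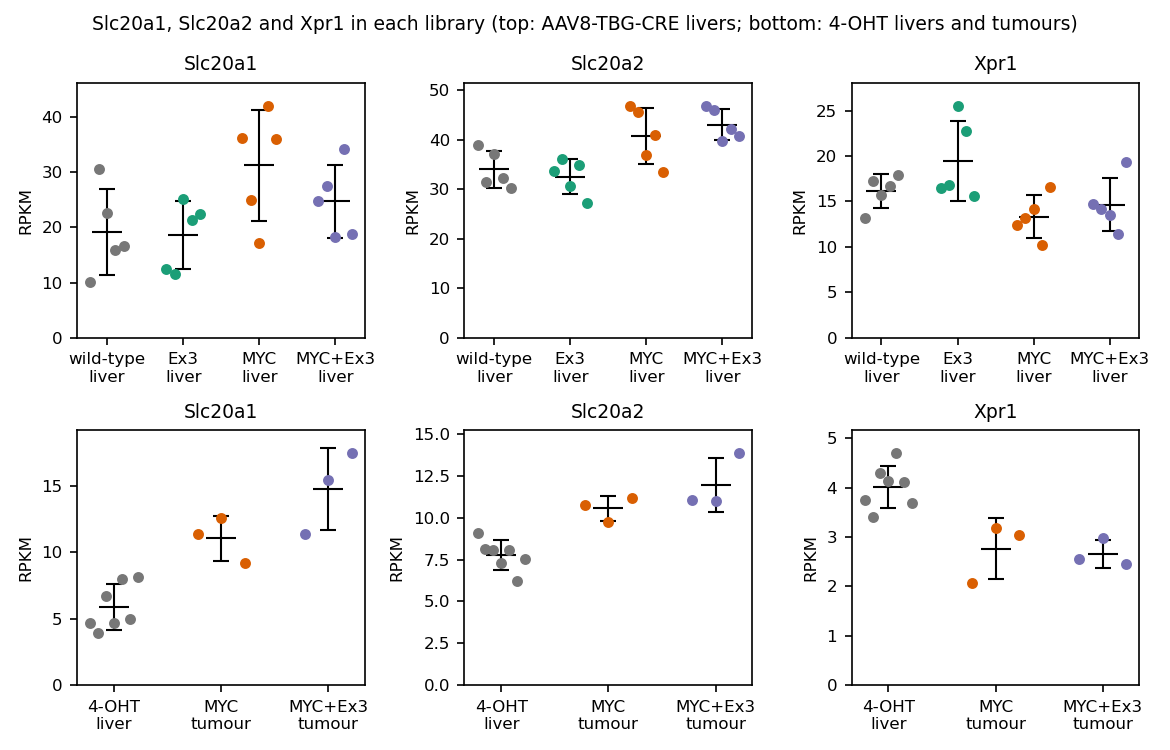
RPKM of Slc20a1, Slc20a2 and Xpr1 in each library (points) with the mean and SD of each group (bars), top row for AAV8-TBG-CRE livers and bottom row for 4-OHT livers and tumours, on separate scales. In the bottom row all 6 tumours lie above all 7 4-OHT livers for Slc20a1 and Slc20a2 and below them for Xpr1, and in the top row only Slc20a2 in MYC+Ex3 livers (39.7 to 46.7) clears a whole group, the wild-type (30.3 to 38.9) and the Ex3 livers (27.3 to 36.1). The share of all genes that separate in this way was not counted. Per M reads in genes, a scale not drawn here, Slc20a1 overlapped between MYC tumours and 4-OHT livers.

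Counted together, the members were read against the share of all genes that the same test called. No member was called between Ex3 and wild-type livers, where 0.132% of all genes were, and none had an unadjusted p under 0.05 or was called by voom. In MYC against wild-type livers 0 of 4 were called by limma and by voom and 22.3% of all genes were called, with 2 members (Slc20a1 and Slc20a2) at an unadjusted p under 0.05. In MYC+Ex3 against wild-type livers 1 rose and 1 fell of 4, against 24.1% of all genes. MYC+Ex3 against MYC livers had 0 of 4 against 0.19% of all genes, with 0 members at an unadjusted p under 0.05. MYC+Ex3 against Ex3 livers had 1 of 4 higher, against 21.1%. In the MYC by Ex3 interaction 0 of 4 members and 0% of all genes were called, by limma and by voom, with 132 genes and none of the members at an unadjusted p under 0.05. In the 10 livers with MYC against the 10 without, 2 members rose and 2 fell, and 39.3% of all genes were called. Of the 3 members tested in tumours, 2 rose and 1 fell against 4-OHT livers in both kinds, where 49.8% (MYC tumours) and 60.6% (MYC+Ex3 tumours) of the 11854 genes tested were called. Between the kinds of tumour 0 of 3 were called, 0 by voom and 0 at an unadjusted p under 0.05, against 4.13% of all genes. Beside shares this high, the calls of members in the tumour comparisons are given as values of these genes and not as a property of the group. The share of all genes without overlap between groups was not counted. Lack of overlap, here and for the list genes below, is therefore given as a value only.

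**Figure D3:**
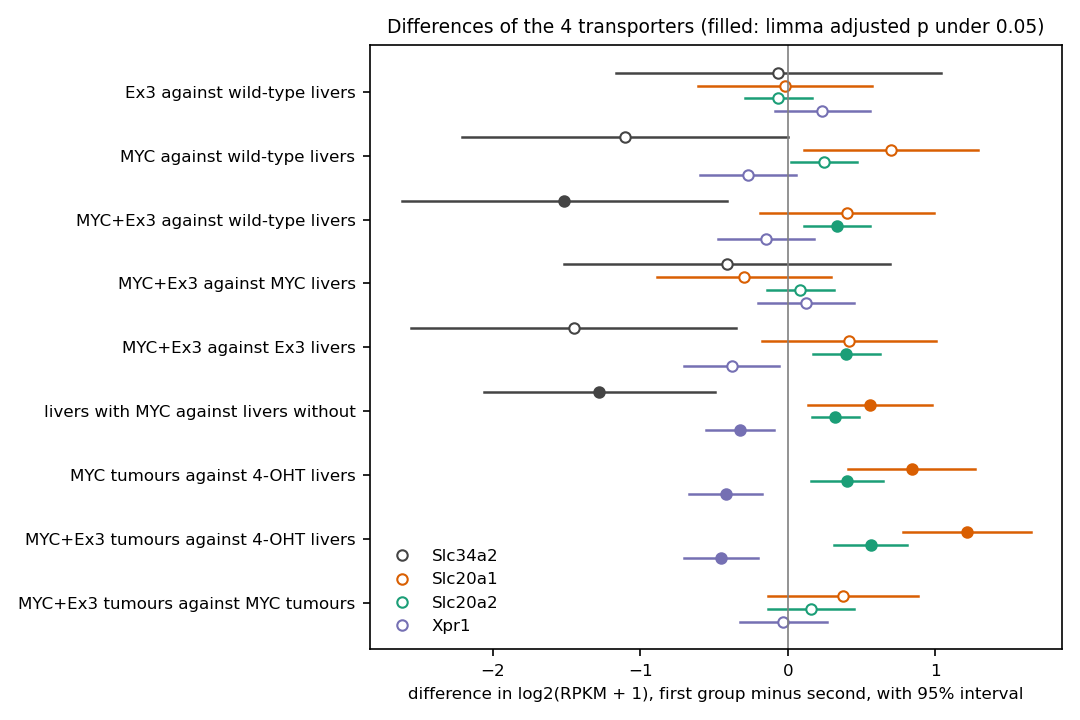
Difference in log2(RPKM + 1) of each of the 4 genes in 9 comparisons, first group minus second, with 95% intervals (lines), and filled points where the limma adjusted p is under 0.05. Slc34a2 is not drawn in the tumour comparisons, which chose it, and there Slc20a1 and Slc20a2 lie right of 0 and Xpr1 left of it in both comparisons with 4-OHT livers.

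As RPKM is per length, the 4 genes can be set beside each other within a library. Slc34a2 made up 54.3% ± 10.6 (SD, n = 7) of their summed RPKM in 4-OHT livers. Its share was 0.0574% ± 0.0629 (n = 3) in MYC tumours, and MYC+Ex3 tumours had 0.0293% ± 0.0350 (n = 3). Slc20a1 made up 15.3% ± 5.71 in 4-OHT livers and 45.1% ± 5.21 and 49.8% ± 3.82 in the tumours. Slc20a2 made up 20.0% ± 3.99, 43.5% ± 4.87 and 40.9% ± 3.44. The sum of the 4 was 40.1 ± 8.85 RPKM in 4-OHT livers, 24.4 ± 1.06 in MYC tumours and 29.4 ± 4.39 in MYC+Ex3 tumours. These shares contain the values that chose Slc34a2, and the others move with it. Whether the narrow top of the RPKM scale in the tumour arm lowers the share of Slc34a2 in 4-OHT livers was not tested. Of the sum of the other 3 genes, the 4-OHT livers had 32.7% ± 6.24 (SD, n = 7) as Slc20a1. MYC tumours had 45.2% ± 5.22 and MYC+Ex3 tumours 49.9% ± 3.81 (n = 3 each). Slc20a2 made up 44.4% ± 5.85, 43.5% ± 4.85 and 40.9% ± 3.45 of it, and Xpr1 22.9% ± 2.64, 11.4% ± 2.45 and 9.21% ± 1.68. The sum of these 3 was 17.7 ± 2.13, 24.4 ± 1.05 and 29.3 ± 4.39 RPKM. In the AAV8-TBG-CRE livers the leader was Slc20a2 on average (46.3% ± 8.16 in wild-type and 52.0% ± 2.77 in MYC+Ex3 livers, n = 5), and Slc34a2 held 6.53% ± 5.99 in wild-type, 5.89% ± 4.25 in Ex3, 1.61% ± 1.42 in MYC and 0.773% ± 0.409 in MYC+Ex3 livers.

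**Figure D4:**
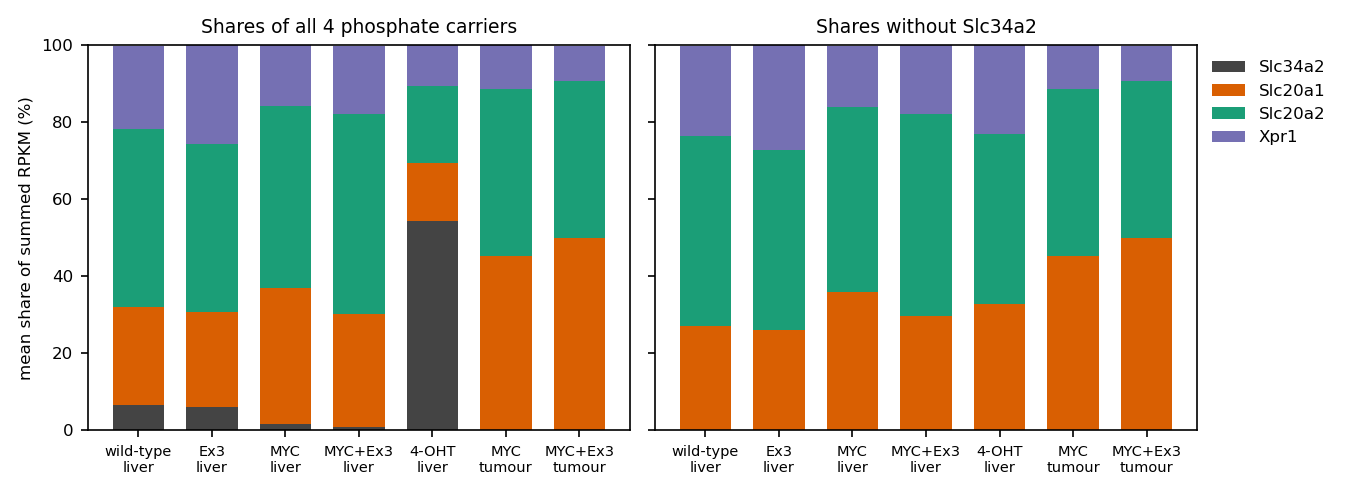
Mean share of each transporter in summed RPKM, in percent, for the 7 groups (stacked bars, 5 libraries for each of the first 4 groups, then 7, 3 and 3), left for all 4 genes and right without Slc34a2. On the left Slc34a2 takes 54.3% in 4-OHT livers and 0.0574% and 0.0293% in the tumours, and on the right Slc20a2 takes 44.4%, 43.5% and 40.9% and Xpr1 22.9%, 11.4% and 9.21% in those groups.

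The other genes of phosphate handling were read from 5 lists of 41 genes, which were written with earlier results of these data known. In the comparisons of AAV8-TBG-CRE livers 33 of the 41 passed the filter on low values and in the tumour arm 31 did. The other 2 members of the SLC34 family did not pass: Slc34a1 had at most 5 reads and Slc34a3 at most 3 in any library. None of the lists' genes was called between Ex3 and wild-type livers, between MYC+Ex3 and MYC livers or in the interaction. Of the 33 tested, 3 rose and 5 fell in MYC and likewise in MYC+Ex3 against wild-type livers, 24.2% in each. Of all genes 16.9% rose and 5.36% fell in the first of these comparisons, 17.9% and 6.18% in the other. MYC+Ex3 against Ex3 livers had 3 higher and 6 lower (27.3%, beside 21.1% of all genes). The 10 livers with MYC against the 10 without had 5 higher and 11 lower (48.5%, beside 25.9% of all genes higher and 13.4% lower). In MYC tumours 6 rose and 8 fell of 31 (45.2%), where 49.8% of all genes were called, 36.2% higher and 13.7% lower. In MYC+Ex3 tumours 8 rose and 13 fell (67.7%), beside 60.6% of all genes, 42.3% higher and 18.4% lower.

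Among the other surface transporters, the SLC17 family, organic anion transporters first described as sodium-phosphate cotransporters, fell where they were called. Slc17a3 fell in all 6 comparisons that set livers or tumours with MYC against livers without it. It was at 26.8 to 35.0 RPKM in wild-type livers, 26.0 to 29.0 in Ex3 livers, 16.8 to 25.6 in MYC livers and 15.2 to 20.6 in MYC+Ex3 livers, with no overlap between livers with and without MYC. The log2 difference from wild type was -0.56 ± 0.116 for MYC (limma adjusted p = 0.00152), and for MYC+Ex3 livers it was -0.76 ± 0.116 (6.38e-05). In the tumour arm it was at 4.30 to 8.52 RPKM in 4-OHT livers, 1.24 to 1.65 in MYC tumours and 0.949 to 1.44 in MYC+Ex3 tumours, falls of 1.45 ± 0.154 (limma adjusted p = 8.78e-06) and 1.65 ± 0.154 (1.12e-06). Slc17a2 fell in MYC and MYC+Ex3 livers (-0.84 and -0.87 against wild type, limma adjusted p = 0.00329 and 0.00232), the first not in the keratin-free libraries alone (0.0981), and in MYC+Ex3 against Ex3 livers (-0.75, limma adjusted p = 0.00762). Slc17a4, a transporter of intestine and liver, fell in MYC+Ex3 livers (-1.33 ± 0.251, limma adjusted p = 0.000568), and tumours of that genotype also had less (-1.51 ± 0.25, 0.000141). Its fall from Ex3 to MYC+Ex3 livers (-0.94, limma adjusted p = 0.0109) was called neither in the keratin-free nor in the keratin-bearing libraries alone (0.0825 and 0.137). Slc17a1 fell in both kinds of tumour (-0.68 and -0.80, limma adjusted p = 0.00149 and 0.000267). The median log2 difference of the 4 SLC17 genes tested was -0.58 in MYC, -0.81 in MYC+Ex3 livers, -0.54 in MYC tumours and -1.15 in MYC+Ex3 tumours, beside 0.069, 0.049, 0.19 and 0.23 over all genes.

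Of the enzymes of inositol phosphates, Ippk, Ip6k1 and Ipmk were called in AAV8-TBG-CRE livers against wild type. Ippk, the kinase that makes inositol hexakisphosphate, the precursor of the pyrophosphates, rose in MYC livers (28.6 ± 7.60 against 16.2 ± 1.70 RPKM, log2 difference 0.76 ± 0.145, limma adjusted p = 0.000738). MYC+Ex3 livers had a rise too (27.0 ± 3.74, 0.70, 0.00135), and neither group overlapped wild type. It rose in MYC tumours (0.72 ± 0.182, limma adjusted p = 0.00496) and in MYC+Ex3 tumours (0.86 ± 0.182, 0.00103) as well, the former not under sample quality weights (0.0536). MYC+Ex3 against Ex3 livers gave 0.83 (limma adjusted p = 0.00034). Ip6k1, which adds the pyrophosphate, fell in MYC livers (-0.48, limma adjusted p = 0.00862). It fell in livers with both alleles (-0.43, 0.0168; -0.42 and 0.0205 against Ex3) and had differences of -0.12 and -0.02 in the tumours. Ppip5k2, another kinase of the inositol pyrophosphates, rose in MYC tumours (0.42, limma adjusted p = 0.0198, and 0.0857 after rescaling) and in MYC+Ex3 tumours (0.60, 0.00183). Ipmk, the multikinase upstream of Ippk, fell in MYC livers (-0.45, limma adjusted p = 0.0337), a call lost in 3 of 10 alternatives. In MYC+Ex3 tumours Ip6k2, a paralogue of Ip6k1, and Itpk1, another inositol phosphate kinase, rose (0.95 and 0.70, limma adjusted p = 0.0171 and 0.018), neither of them against the S14 livers alone (0.117 and 0.126). Itpk1 also just passed in livers with MYC against those without (0.41, limma adjusted p = 0.0498), and that call was lost in 5 of 9 alternatives. Kidins220, the partner of XPR1 at the membrane, was not called in any comparison.

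Of the carriers of inner membranes, Slc25a3, which brings phosphate into mitochondria, was called higher in MYC livers (0.23 ± 0.0828, limma adjusted p = 0.0485), MYC+Ex3 livers (0.26, 0.0259), MYC tumours (0.38, 0.015) and MYC+Ex3 tumours (0.54, 0.00117). After rescaling by the median ratio only the last of these 4 calls held, the others having limma adjusted p = 0.403, 0.223 and 0.0674. The call in MYC livers was lost in 5 of 10 alternatives and on leaving out any of 18 of the 20 libraries, with a highest adjusted p of 0.122 among these 20. In MYC+Ex3 livers it was lost in 5 of 11 and in 3 of 20, and against Ex3 livers (0.25, limma adjusted p = 0.0388) in 4 of 11 and in 10 of 20. Slc25a25 and Slc37a1 fell in MYC+Ex3 tumours (-0.85 and -0.59, limma adjusted p = 0.0101 and 0.0103), the former not against the S14 livers alone (0.061). Slc25a25, a carrier that exchanges ATP-Mg for phosphate, was also lower in MYC+Ex3 than in Ex3 livers (-0.76, limma adjusted p = 0.0168), but not in the keratin-free libraries alone (0.191). Slc25a23, of the same kind, fell in MYC+Ex3 tumours (-0.29, limma adjusted p = 0.0158), but not against the S14 livers alone (0.106). Slc37a2, an exchanger of sugar phosphate for phosphate, was called higher in MYC tumours (0.36, limma adjusted p = 0.0471), a call lost in 8 of 9 alternatives.

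Pyrophosphate inhibits mineralisation and yields phosphate when cleaved. Of the 9 genes of pyrophosphate and phosphatases, 1 was called in MYC against wild-type livers (11.1%, beside 22.3% of all genes) and 2 in MYC+Ex3 livers (22.2%, beside 24.1%). In MYC tumours 2 rose and 4 fell (66.7%, beside 49.8%), and in MYC+Ex3 tumours 2 rose and 5 fell (77.8%, beside 60.6%). Alpl, the tissue-nonspecific alkaline phosphatase that cleaves it, was at 4.65, 11.4, 5.31, 2.62 and 4.17 RPKM in wild-type livers and at 24.3, 13, 11.9, 18.8 and 16.5 in MYC livers, which did not overlap. The log2 difference was 1.52 ± 0.313 for MYC (limma adjusted p = 0.00146). For MYC+Ex3 livers it was 1.19 ± 0.313 (0.00874), a call lost in the keratin-bearing libraries alone (0.74, 0.267). In tumours Alpl rose by 1.19 (MYC, limma adjusted p = 0.0124) and 1.5 (MYC+Ex3, 0.00218), the former not against the S15 4-OHT livers alone (0.85, 0.142) nor without MYC tumour replicate 1 or 2. Enpp1, which makes pyrophosphate outside the cell, Ank, which exports it with ATP, and Abcc6, whose ATP release feeds Enpp1, all fell in both kinds of tumour, without overlap with 4-OHT livers. Enpp1 fell by 1.11 and 0.95 (limma adjusted p = 5.94e-05 and 0.000106), Ank by 0.51 and 0.59 (0.00891 and 0.00257, the former 0.0716 against the S14 livers alone) and Abcc6 by 0.73 and 0.83 (6.58e-05 and 1.06e-05). Acp5, the tartrate-resistant phosphatase of macrophages and osteoclasts, fell by 0.71 and 1.36 (0.000633 and 1.56e-06), beside the macrophage sums given above, whose part in it was not tested. Acp2, a lysosomal acid phosphatase, fell in MYC+Ex3 livers (-0.38, limma adjusted p = 0.0371, lost in 3 of 11 alternatives). In tumours of that genotype it fell too (-0.53, limma adjusted p = 0.00138), and Acp1, a small cytosolic phosphatase, rose (0.44, 0.00922). Ppa2, the pyrophosphatase of mitochondria, was called higher in MYC tumours (0.43, limma adjusted p = 0.0406), a call lost in 7 of 10 alternatives. MYC+Ex3 against Ex3 livers had Alpl higher (1.02, limma adjusted p = 0.0241), but not in the keratin-bearing libraries alone (0.361). In livers with MYC against those without, Abcc6 was lower (-0.83, limma adjusted p = 0.0106) and Ppa1, the cytosolic pyrophosphatase, higher (0.20, 0.0393), the latter call holding in 3 of 9 alternatives.

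In the hormonal list, Pth1r, the receptor of parathyroid hormone, separated the 2 kinds of tumour. It was at 1.33 to 2.62 RPKM in 4-OHT livers, at 0.123, 2.17 and 0.518 in MYC tumours and at 4.33, 3.46 and 3.89 in MYC+Ex3 tumours. The difference between the tumours was 1.48 ± 0.279 (limma adjusted p = 0.00754), and with only those 6 tumours in the fit the same difference had an adjusted p of 0.162. Pdzk1, a scaffold that binds phosphate cotransporters, was likewise higher in MYC+Ex3 (16.3 ± 1.46 RPKM) than in MYC tumours (9.12 ± 3.21), by 0.82 ± 0.189 (limma adjusted p = 0.0253), a call lost with only those tumours in the fit (0.256) and without any of the 3 MYC+Ex3 tumours. Against 4-OHT livers, Pth1r fell in MYC tumours (-0.78, limma adjusted p = 0.0141), but not with sample quality weights (0.142) or against the S15 livers alone (0.164). It rose in MYC+Ex3 tumours (0.70, limma adjusted p = 0.0193), a call lost in 4 of 9 alternatives. MYC+Ex3 livers had less than Ex3 livers (-0.70, limma adjusted p = 0.0418), a call lost in 5 of 11. Pdzk1 had fallen in MYC livers (-0.60 ± 0.132, limma adjusted p = 0.00254) and fell in MYC tumours (-0.60, 0.00684), the latter not with weights (0.0669). The related scaffolds Slc9a3r1 and Slc9a3r2 fell in MYC+Ex3 tumours (-0.31 and -0.76, limma adjusted p = 0.0452 and 0.00202), the former call holding in 7 of 10 alternatives. With 1 library left out the Slc9a3r1 call held in 5 of 13 fits (highest limma adjusted p = 0.194). Slc9a3r1 was also lower in livers with MYC than in those without (-0.34, limma adjusted p = 0.0196), but not in the keratin-free libraries alone (0.0763). Between the kinds of tumour 2 of the 31 genes tested rose and 2 (Slc17a4 and Acp5) fell, 12.9% of the lists beside 4.13% of all genes. With only the 6 tumours in the fit these also missed the threshold (limma adjusted p = 0.267 and 0.243). With 1 library left out the Slc17a4 call was lost in 11 of 13 fits and that of Acp5 in 3 of 13.

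**Figure D5:**
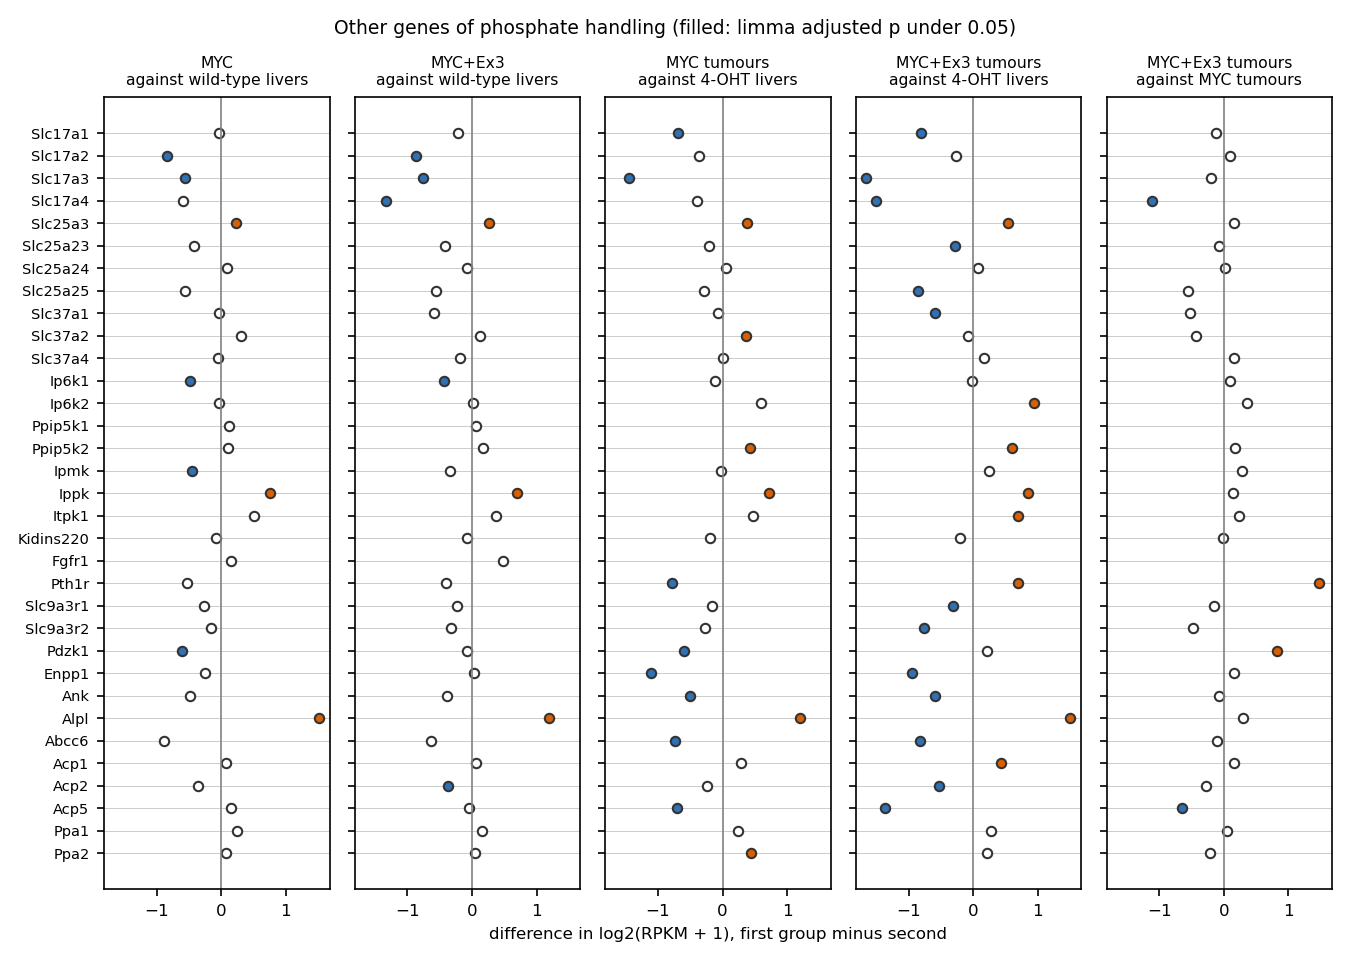
Difference in log2(RPKM + 1) of the other genes of phosphate handling in 5 comparisons (panels), first group minus second, with filled points where the limma adjusted p is under 0.05, orange for higher and blue for lower. Slc17a3 lies left of 0 and filled in the 4 panels against livers without MYC, Ippk and Alpl lie right of 0 and filled in the same panels, and Pth1r stands out in the last.

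The genes whose level followed Slc34a2 most closely were ranked by Pearson r over the 20 AAV8-TBG-CRE livers after removal of group means, among 9123 genes with a mean of at least 5 RPKM. Highest were Rai14 (r = 0.92, Spearman rho 0.90), an actin-associated ankyrin-repeat protein, and Ndrg1 (0.91, 0.90), a gene known to respond to hypoxia and differentiation. Pdia4, Loxl4 and Mdp1 followed at r = 0.85, 0.85 and 0.84. Lowest were Fmo5 (-0.84), Gde1 (-0.83) and Akr1c19 (-0.82). Without the 2 libraries farthest from the median (Ex3 liver replicate 5 and wild-type liver replicate 2), r was 0.84 for Rai14 and 0.82 for Ndrg1. In the keratin-free libraries r was 0.72 and 0.82, but 0.10 for Mdp1 and -0.23 for Fmo5. In the 7 4-OHT livers, which did not enter the ranking, r with Slc34a2 was 0.67 for Rai14, 0.42 for Ndrg1, -0.03 for Mdp1, -0.83 for Fmo5 and -0.63 for Gde1. Rai14 itself was at 5.06 ± 0.298 (MYC) and 4.31 ± 0.288 RPKM (MYC+Ex3) in tumours beside 4.45 ± 0.863 in 4-OHT livers. These are the extremes of many genes and share libraries and depth, so they are given as a description with no p.

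Among the members themselves, Slc34a2 and Slc20a1 had r = -0.49 in the 20 livers after removal of group means, -0.12 in the keratin-free ones and -0.39 in the 4-OHT livers. With Slc20a2 it had r = 0.33, which was 0.055 without the 2 farthest libraries, 0.0015 in the keratin-free ones and 0.26 in the 4-OHT livers. With Xpr1 it had r = 0.26, and 0.22, -0.15 and -0.30 in the same order, so the sign was not kept. The genes most like Slc20a1 were Ppl (0.86), the importin Ipo5 (0.81) and the vitamin transporter Slc5a6 (0.81), with r = 0.43, 0.75 and 0.78 in the 4-OHT livers.

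In the authors' deposited table, which gives log2 fold changes on another scale, Slc34a2 had -1.81 in MYC+Ex3 against wild-type livers (adjusted p = 0.000855) and -1.01 in MYC livers (0.0810). For the tumours the authors' deposited table gives -9.09 and -10.2 for Slc34a2, 0.68 and 1.08 for Slc20a1, 0.23 and 0.40 for Slc20a2, and -0.74 and -0.80 for Xpr1, MYC tumours first. Each of those 8 values has the sign of the difference computed here. They come from the same libraries, so this is no separate evidence.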

How the data were processed

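Total RNA from 20 AAV8-TBG-CRE livers, 7 4-OHT livers and 6 tumours was sequenced as stranded libraries, per the labels' protocols. The deposited table gives RPKM per gene and library, which the authors computed, and their own log2 fold changes with p-values. The submitters' processing notes name TopHat2 2.0.8, SAMtools, featureCounts 1.4.5-p1, DESeq2 and mm9, without roles. No column of the table lay outside the series (0 columns).

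Groups came from the titles. RPKM were tested as log2(RPKM + 1) with limma 3.58.1 (R 4.3.3), empirical Bayes with trend, two-sided, in 1 fit per arm over genes with at least 1 RPKM in 3 libraries. P-values were adjusted by Benjamini-Hochberg over all genes tested, for 10 comparisons. Whole reads were recovered from the RPKM (100% of values whole within 0.001 reads) and tested with voom as an alternative, and the floor for a count of 0 is 3 reads. The scripts were tested on simulated data. Intervals of 95% on read ratios cover counting error only. Libraries with over 2 RPKM of Krt5, Krt14 and Krt17 were called keratin-bearing. Likeness, promoters and figures used Python 3.11.15.

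The members, gene lists and markers were chosen with earlier results of these data known. The 4 members are named throughout, and list genes only where called, besides Slc34a1, Slc34a3 and Kidins220. Shares without Slc34a2 and counts of markers by direction were added later. The comparison of livers with and without MYC and its alternatives were added after values were seen. Alternatives were the pseudocount, filter, scaling, groups in the fit, sex, library set, sample weights, voom and each library left out.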

Additional observations from a re-analysis of the deposited data

How the results depend on the processing

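No paired analysis was possible because replicate numbers follow the order of the samples and pair nothing. For the 4 genes, 348 of 385 values under alternatives and 658 of 703 with 1 library left out kept their direction and side of the threshold, as did 680 of 781 and 1181 of 1324 for called pathway genes. The first 2 counts include Slc34a2 in tumours against 4-OHT livers, which has no threshold. There a value counted as kept if it shifted by less than the SD of the 4-OHT livers in log2(RPKM + 1), and 4 under alternatives shifted by more. The causes were not tested. Slc34a2 between Ex3 and wild-type livers was 0.020 with sex as a covariate and 0.39 in keratin-free libraries (-0.47 to 0.42 with 1 library left out). Slc20a1 there was 0.022 with sex, 0.12 with sample weights and 0.18 in keratin-bearing libraries (-0.21 to 0.17). In MYC against wild-type livers, Slc20a1 was 0.74 with weights and 0.86 with library set (0.51 to 0.89), Slc20a2 0.36 with weights (0.20 to 0.31), and Slc34a2 ran from -1.50 (called, without wild-type replicate 2) to -0.70. In MYC+Ex3 against wild-type livers, Slc34a2 was -2.33 at a pseudocount of 0.1, -1.52 unfiltered (limma adjusted p = 0.0697), -1.35 with sex, -2.48 by voom and -1.47 in keratin-bearing libraries (-1.92 to -1.12). Slc20a2 was 0.25 rescaled, 0.28 with sex and 0.28 keratin-free (0.30 to 0.38), and Xpr1 0.0058 with sex and 0.00056 keratin-free. In MYC+Ex3 against Ex3 livers, Slc34a2 was called with only these groups or with library set (-1.45), with weights (-1.40), keratin-free (-1.96) and without any 1 of 4 libraries (-1.94 to -1.19), Slc20a1 -0.0098 keratin-bearing, Slc20a2 0.40 keratin-free, and Xpr1 -0.44 with weights (-0.48 to -0.28). In the interaction, Slc20a1 was 0.25 keratin-free and Slc34a2 -0.83 to 0.053. In livers with MYC against those without, Slc20a1 was 0.56 unfiltered (limma adjusted p = 0.0506) and 0.48 rescaled (0.46 to 0.65), Slc20a2 0.24 (limma adjusted p = 0.131) and Xpr1 -0.12 keratin-free (Xpr1 -0.37 to -0.27). No keratin-bearing value was had for comparisons with MYC livers, of which 1 is keratin-bearing. In MYC and MYC+Ex3 tumours, Slc34a2 was -7.54 and -7.61 at a pseudocount of 0.1 and -10.75 and -11.36 by voom, against -4.44 and -4.45. In MYC tumours, Slc20a2 was 0.37 with weights and 0.34 against S14 livers, and Xpr1 -0.33 with weights (-0.50 to -0.28). Between tumours Xpr1 ran from -0.17 to 0.052. Genes called ranged under alternatives from 2 to 62 (18 in Ex3 against wild-type livers), 1249 to 3727 (3047, MYC against wild-type), 2453 to 6416 (3301, MYC+Ex3 against wild-type), 6 to 78 (26, MYC+Ex3 against MYC), 1668 to 6707 (2893, MYC+Ex3 against Ex3), 3900 to 7338 (5381, with MYC against without), 3636 to 6650 (5907, MYC tumours), 4278 to 8581 (7189, MYC+Ex3 tumours) and 70 to 601 (489, between tumours). At 0 to 6 reads a tumour, depth limits what can be said of Slc34a2 there.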

Other observations

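Fgf23, the hormone of bone that lowers phosphate in blood, stayed under the filter on low values and was singled out after its values were seen. It had 17, 11 and 133 reads in the 3 MYC+Ex3 tumours (0.258, 0.203 and 2.37 RPKM) and 4, 2 and 1 reads in the 3 MYC tumours. No other library had more than 1 read. The highest value comes from 1 tumour, and no test was made.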
